A study of Mus musculus with 12 samples.

Results

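The miR-30 family is described here through its 5p arms mmu-miR-30a-5p, mmu-miR-30b-5p, mmu-miR-30c-5p, mmu-miR-30d-5p and mmu-miR-30e-5p in mouse haploid embryonic stem cells, diploid embryonic stem cells and round spermatids. The 5 members were taken by name from a deposited table of read counts with 1549 rows, of which 1366 carry a mouse miRBase name. All 5 had reads in each of the 12 libraries, and all 5 passed the filter on low counts in both models. Small RNA was sequenced from 3 lines of androgenetic haploid embryonic stem cells, whose single chromosome set is paternal, and 2 libraries came from line A129-2, 3 from A129-6 and 2 from A129-17. The diploid mouse embryonic stem cell line R1 gave 2 libraries. Round spermatids (RS), which are post-meiotic haploid germ cells, gave 3 libraries and were sorted after Hoechst 33342 staining from testes of 129Sv males of an age not given in the labels.

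All groups are labelled wild type, with sorting as the treatment. Per the labels' protocols, the haploid lines were kept with LIF and the inhibitors PD0325901 and CHIR99021 (2i), and were periodically enriched for haploid cells by Hoechst sorting. No separate medium is described for R1. The labels speak of independent sorted collections but do not say whether these came from separate cultures or animals. The p-values therefore reflect how far these samples spread, and that spread may be technical. R1 was 1 line, so a difference from R1 is a difference from that line.

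MicroRNAs are short RNAs cut from hairpin precursors. Each hairpin has a 5p and a 3p arm, and the arm that is loaded into an Argonaute protein pairs with target mRNAs mainly through its seed, bases 2 to 8 from the 5′ end. Members of the miR-30 family share a seed and so can address overlapping sets of mRNAs, and the family is known for restraining Snai1, a transcription factor of the epithelial-mesenchymal transition, and for roles in kidney development. In mouse embryonic stem cells the most abundant miRNAs are usually those of the miR-290 cluster, whose share of the reads bears on every relative level given here.

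The mature sequences of the members, from RefSeq on GRCm38.p6, show how alike they are. Capitals mark the seed, and the family's seed is the same 7 bases in each of these 3 members.
miR-30a-5p: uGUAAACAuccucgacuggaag
miR-30c-5p: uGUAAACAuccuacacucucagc
miR-30e-5p: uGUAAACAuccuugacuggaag

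miR-30a-5p lies at chr1:23272274-23272295 on the plus strand. miR-30c-5p has 2 sources, at chr1:23291714-23291736 on the plus strand and chr4:120769584-120769606 on the minus strand. miR-30e-5p lies at chr4:120772660-120772681 on the minus strand. Over 22 positions, counted from 1 at the 5′ end, miR-30a-5p and miR-30e-5p differ by 1 base, written C13U with the miR-30a base first. miR-30a-5p and miR-30c-5p share their first 12 bases and differ at 5 of the 22 positions. Reads that match more than 1 member make the split between miR-30a and miR-30e less certain than their sum, and their handling by the authors is not given in the sources used here. Whether the same holds for miR-30b and miR-30d, whose sequences were not at hand, was not assessed.

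In the GRCm38 annotation the precursor Mir30a (chromosome 1, 23272269 to 23272339) is in no annotated host gene. Mir30c-2 (chromosome 1, 23291701 to 23291784) overlaps an exon of the long non-coding RNA gene Gm27028 and starts 19361 bases beyond Mir30a on the same strand. Mir30c-1 (chromosome 4, 120769534 to 120769622) and Mir30e (chromosome 4, 120772606 to 120772697) are 2983 bases apart in an intron of Nfyc, the gene of a subunit of the transcription factor NF-Y, on its strand. miR-30b and miR-30d, the other two members, are given by name.

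Counted reads per library were 3709786 to 9102467 in the haploid lines, 7632174 and 9176080 in R1, and only 155232 to 243714 in RS, so the spermatid values have the widest counting error. The miR-290 cluster, the marker of pluripotent cells, took 64.1% to 77.1% of the reads in the haploid libraries, 49.1% to 50.2% in R1 and 0.00985% to 0.678% in RS. The 7 listed spermatid markers took 0.279% to 1.16% of reads in haploid libraries, 0.114% to 0.121% in R1 and 29.3% to 39.7% in RS, so each group carried the markers of its label. Replicates within groups were unlike one another to different degrees. The deviation between libraries of a group, as chi-square per degree of freedom, was 487 between the A129-2 libraries, 79.6 between A129-6 replicates 1 and 2, and 898 and 1156 between each of them and A129-6 replicate 3. It was 253 between the A129-17 libraries, 52.6 between those of R1, and 179, 198 and 59.6 between those of RS. This measure grows with read depth, so the values of the shallow RS libraries cannot be set beside the others. Relative to total counts, A129-6 replicate 3 lay nearer to the A129-17 libraries than to its own line in miR-30a-5p, miR-30c-5p and miR-30e-5p, while on the TMM-scaled levels used in the tests below it lay nearer to its own line in miR-30a-5p and miR-30e-5p.

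Levels are given first as CPM, the reads of a miRNA per 1000000 reads counted in the library, with no other scaling. miR-30d-5p was the most abundant member in all 12 libraries. It had 12774 and 10089.6 CPM in A129-2, 10931, 10965 and 14293 CPM in A129-6, 12937 and 8703 CPM in A129-17, 11587 and 10387 CPM in R1, and 26145, 42923 and 44428 CPM in RS. By CPM the 4 stem cell groups overlapped one another, and every spermatid library stood higher. This order depends on the scaling. On TMM-scaled levels over all 12 libraries, haploid libraries (12446 to 30448) overlapped those of RS (13813 to 20263), and R1 lay lower (7929 and 8829). The group means ± SD were 11432 ± 1898 CPM in A129-2, 12063 ± 1931 in A129-6, 10820.1 ± 2994 in A129-17, 10987 ± 848 in R1 and 37832 ± 10149 in RS (n as above). Among all rows miR-30d-5p ranked 5th to 12th in the haploid libraries, 16th or 17th in R1, and 4th to 7th in RS.

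miR-30a-5p had 3929 and 4983 CPM in A129-2, 4547, 4577 and 2962 CPM in A129-6, 2527 and 2083 CPM in A129-17, 9818 and 8882 CPM in R1, and 18907, 18205 and 22304 CPM in RS. The means were 4456 ± 745 CPM in A129-2, 4029 ± 924 in A129-6, 2305 ± 314 in A129-17, 9350 ± 662 in R1 and 19806 ± 2192 in RS (SD), so that from low to high the order was A129-17, A129-6, A129-2, R1 and RS. A129-2 and A129-6 overlapped, while the lowest library of R1 was above every haploid library and the lowest of RS above both of R1. On TMM-scaled levels over all 12 libraries the ranges overlapped. They were 3442 to 8126 in haploid libraries, 6780 to 7481 in R1 and 6937 to 10173 in RS.

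miR-30e-5p, which differs from miR-30a-5p at a single base, had another order. Its levels were 818 and 1222 CPM in A129-2, 706, 808 and 430.4 CPM in A129-6, 434 and 459.6 CPM in A129-17, 9251 and 7803 CPM in R1, and 5835, 8690.2 and 10102 CPM in RS. R1 and RS overlapped, at 8527 ± 1025 and 8209 ± 2174 CPM (SD), and all 7 haploid libraries were far below both. The haploid lines followed in the order A129-2 (1020.3 ± 286 CPM), A129-6 (648 ± 195) and A129-17 (447 ± 18.2), and the A129-6 libraries overlapped those of A129-17 and lay below those of A129-2.

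miR-30c-5p, the member with 2 precursors, had 159 and 207 CPM in A129-2, 153, 167 and 69.8 CPM in A129-6, 52.5 and 78.2 CPM in A129-17, 968 and 890.0 CPM in R1, and 5035, 7247 and 4001 CPM in RS. It was lowest in the haploid lines, higher in R1 and highest in RS, with no overlap between those 3 kinds of cell. The means were 183 ± 34.02 CPM in A129-2, 129.9 ± 52.5 in A129-6, 65.4 ± 18.1 in A129-17, 929 ± 55.2 in R1 and 5428 ± 1658 in RS (SD).

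miR-30b-5p was the least abundant member in every library. It had 11.3 and 9.45 CPM in A129-2, 13.2, 10.2 and 5.08 CPM in A129-6, 8.13 and 9.28 CPM in A129-17, 112 and 105 CPM in R1, and 739, 1056 and 522 CPM in RS. Its order was that of miR-30c-5p, with the 3 haploid lines overlapping at 10.4 ± 1.32, 9.48 ± 4.10 and 8.70 ± 0.815 CPM for A129-2, A129-6 and A129-17, against 108 ± 4.64 CPM in R1 and 772 ± 269 CPM in RS (SD). These values rested on 37 to 95 reads in the haploid libraries, 851 and 963 reads in R1, and 180, 164 and 87 reads in RS. The exact (Clopper-Pearson) 95% interval was 3.58 to 7.003 CPM in the lowest haploid library and 418 to 644 CPM in the lowest spermatid library. Reads were amplified by PCR and carried no molecular identifiers that the labels mention, so such intervals cover counting error only.

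**Figure D1:**
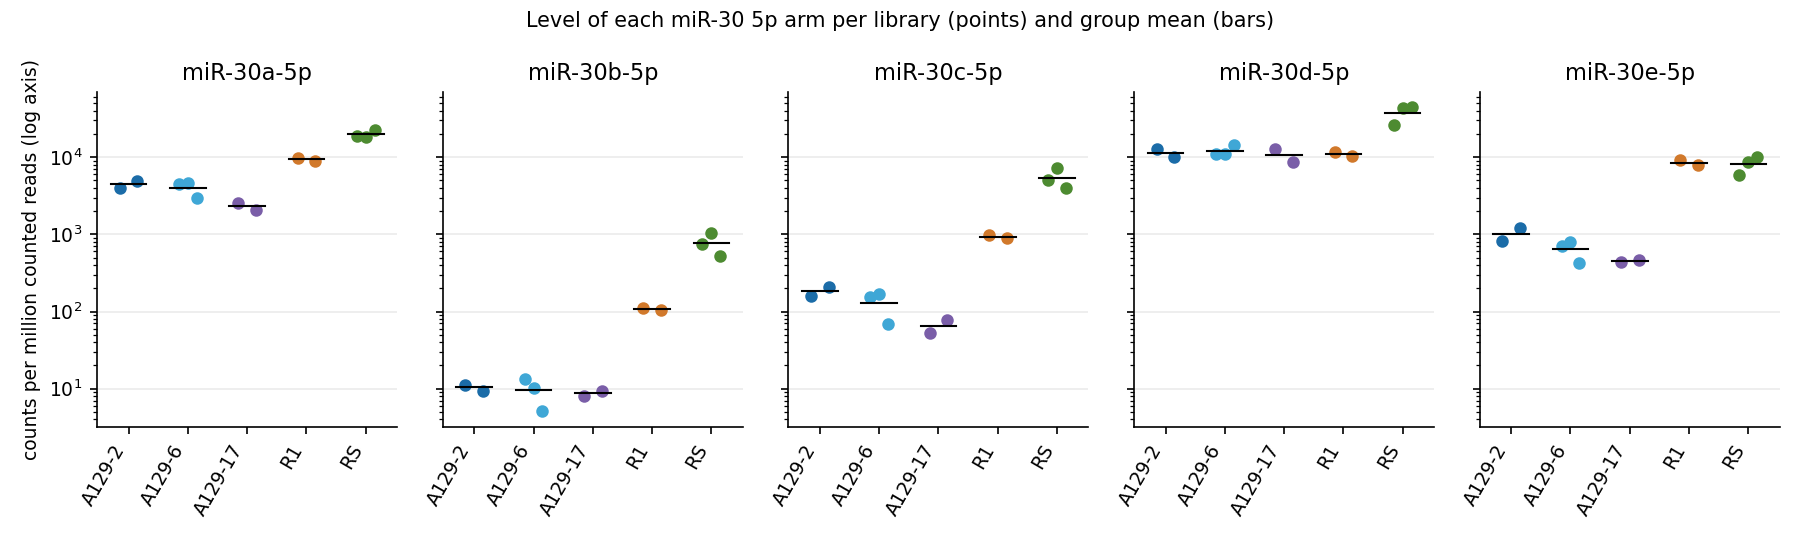
CPM (log axis) of each miR-30 5p arm, with 1 point per library and a bar at the group mean, for A129-2, A129-6, A129-17, R1 and RS. By CPM, with no other scaling, miR-30d-5p lies between 8703 and 14293 in the haploid and R1 libraries and above them in RS. miR-30b-5p, miR-30c-5p and miR-30e-5p are far lower in all 7 haploid libraries than in R1.

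Summed over the 5 members, the family took 1.77% and 1.65% of the reads counted in the A129-2 libraries, 1.64%, 1.65% and 1.78% in those of A129-6, and 1.60% and 1.13% in those of A129-17. The values were 3.17% and 2.81% in R1, and 5.67%, 7.81% and 8.14% in RS. By this measure the sum was lowest in the haploid lines and highest in spermatids, with no overlap between the 3 kinds of cell. The order depends on the reads of the miR-290 cluster. As a share of the reads outside that cluster, the family took on average 5.69% in A129-2, 6.22% in A129-6, 5.69% in A129-17, 5.94% in R1 and 7.22% in RS. The libraries then ran from 4.48% to 7.76% in the haploid lines, 5.64% to 6.24% in R1 and 5.67% to 8.14% in RS, and all 3 kinds of cell overlapped. In bulk samples fewer cells of a type and less of an RNA per cell cannot be told apart.

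The make-up of the family does not depend on the scaling of libraries. Members differ in base composition, and differences from R1 ran with base composition across miRNAs, as given below. The part of base composition in the shares was not tested. miR-30d-5p made up 72.1% ± 7.68 of the summed members in the 7 haploid libraries (SD), 36.8% ± 0.352 in the 2 R1 libraries and 51.9% ± 4.99 in the 3 RS libraries. Its share ran from 61.1% to 81.1% in haploid libraries, above 36.5% and 37.0% in R1 and above 46.1%, 54.9% and 54.6% in RS. Among the lines it averaged 66.7% ± 7.85 in A129-2, 71.2% ± 8.01 in A129-6 and 78.9% ± 3.02 in A129-17, and A129-6 overlapped both other lines.

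miR-30e-5p made up 2.42% to 7.40% of the family in haploid libraries, 29.2% and 27.8% in R1, and 10.3%, 11.1% and 12.4% in RS. In R1 miR-30a, miR-30d and miR-30e were thus close in abundance, with miR-30a-5p at 30.9% and 31.6%. miR-30a-5p made up 15.8% to 30.2% in haploid libraries and 33.4%, 23.3% and 27.4% in RS, so haploid and spermatid libraries overlapped in it. miR-30c-5p made up 0.788% ± 0.336 in haploid libraries, 3.11% ± 0.0853 in R1 and 7.69% ± 2.41 in RS (SD, n = 7, 2 and 3). miR-30b-5p made up 0.0607% ± 0.0182, 0.363% ± 0.0160 and 1.10% ± 0.397 in haploid, R1 and RS libraries.

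Between the 7 haploid and the 3 RS libraries each share was compared by an exact two-sided permutation test over libraries, 5 tests in all, whose smallest possible p is 0.0167. The share of miR-30d-5p was higher by 20.2 percentage points in haploid libraries, and those of miR-30b-5p, miR-30c-5p and miR-30e-5p differed by -1.04, -6.91 and -6.93 points, each with the smallest exact p of 0.0167. The share of miR-30a-5p differed by -5.35 points (exact permutation p = 0.233). These p-values were not adjusted. The 5 shares add up to the whole family, so a higher share of 1 member lowers others and the 5 tests are not independent. Libraries of 1 line are not separate lines. With the counts summed per line, the differences were 20.0 points for miR-30d-5p, -1.04 for miR-30b-5p, -6.90 for miR-30c-5p and -6.76 for miR-30e-5p, where 3 lines against 3 libraries allow no exact p below 0.1. The 7 haploid against the 2 R1 libraries allow no exact p below 0.0556 and were not tested, although none of the haploid shares of miR-30a, miR-30b, miR-30c, miR-30d and miR-30e overlapped those of R1.

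**Figure D2:**
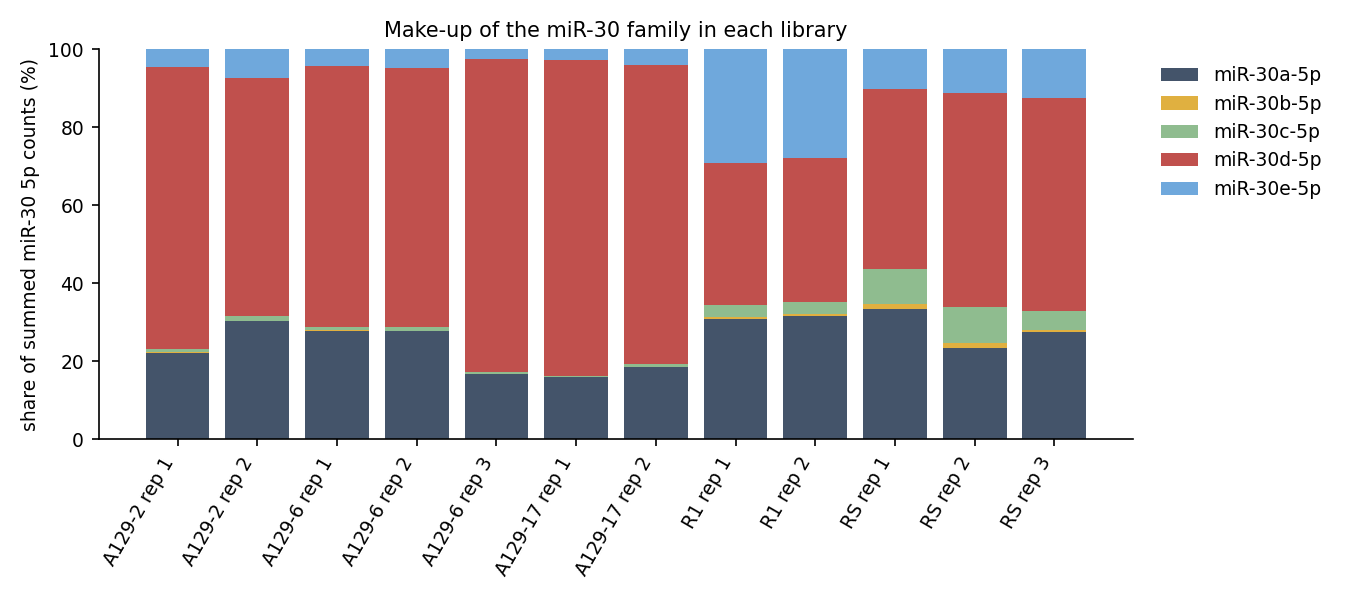
Share (%) of the summed 5p counts of the family taken by each member, with 1 stacked bar per library. miR-30d-5p takes 61.1% to 81.1% in the haploid libraries and miR-30e-5p 2.42% to 7.40%, against 36.5% to 37.0% and 27.8% to 29.2% in R1.

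The ratios between members give the same data without the sum, and the part of base composition in them was not tested either. miR-30d-5p exceeded miR-30e-5p 8.25-fold to 33.2-fold in haploid libraries, 1.25-fold and 1.33-fold in R1, and 4.40-fold to 4.94-fold in RS, with no overlap between the 3 kinds of cell. miR-30a-5p exceeded miR-30e-5p 4.08-fold to 6.88-fold in haploid libraries, 1.06-fold to 1.14-fold in R1, and 2.09-fold to 3.24-fold in RS. The ratio of miR-30c-5p to miR-30b-5p overlapped, at 6.46 to 22.0 in haploid libraries, 8.48 and 8.68 in R1, and 6.82 to 7.67 in RS.

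How haploid embryonic stem cells differed from a diploid line was tested with edgeR's quasi-likelihood test on the counts of the 9 stem cell libraries, scaled by TMM, a trimmed mean of ratios between libraries. The 3 haploid lines weighed equally, and p-values were adjusted by the Benjamini-Hochberg method over all 757 miRNAs tested. miR-30a-5p, miR-30b-5p, miR-30c-5p and miR-30e-5p were lower in the haploid lines, and miR-30d-5p did not pass the threshold of 0.05. The background was high, since 70.5% of the miRNAs tested passed in either direction and 35.3% passed as lower.

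miR-30e-5p was 11.5-fold lower in the haploid lines than in R1 (log2 -3.53, SE 0.24, adjusted p = 4.64e-09). miR-30b-5p was 10.5-fold lower (log2 -3.39, SE 0.27, adjusted p = 3.65e-08) and miR-30c-5p 7.34-fold lower (log2 -2.88, SE 0.24, adjusted p = 5.51e-08). miR-30a-5p fell less, 2.43-fold (log2 -1.28, SE 0.24, adjusted p = 0.000220). The TMM-scaled levels of these 4 members did not overlap between haploid and R1 libraries, as held for 35.1% of the miRNAs tested in the lower direction. miR-30d-5p stood at log2 0.24 (SE 0.32, adjusted p = 0.508), and its sign turned with another scaling (-0.0089 with RLE, the scaling of DESeq2). The median log2 difference was -2.88 over the 5 members and 0.33 over all miRNAs tested. The median over all miRNAs was 0.084 with RLE, 0.64 with upper-quartile and 0.20 with total-count scaling, so miR-30d-5p lay close to the middle of all miRNAs under TMM and RLE.

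Differences from R1 ran with base composition across miRNAs. Leaving the members out, the median log2 difference between the haploid lines and R1 was -3.03 for 90 miRNAs of 30% to 40% GC, -1.35 for 189 miRNAs of 40% to 50% GC and 0.72 for miRNAs of 50% to 60% GC. miR-30a-5p (45.5% GC), miR-30c-5p (43.5%) and miR-30e-5p (40.9%) belong to the middle of these classes, and miR-30a-5p at -1.28 lay close to the median of that class. With a correction for GC content, made on the 609 tested miRNAs with a sequence at hand, the log2 difference was -0.48 for miR-30a-5p (SE 0.23, adjusted p = 0.0868), -1.78 for miR-30c-5p (adjusted p = 7.01e-06) and -2.03 for miR-30e-5p (adjusted p = 1.43e-06). On the same miRNAs without the correction the values were -1.12, -2.72 and -3.37. The call for miR-30a-5p was also lost when all 12 libraries entered the model (log2 -0.41, adjusted p = 0.370), while those for miR-30b-5p, miR-30c-5p and miR-30e-5p held in every alternative run. With all 12 libraries the median log2 difference over all miRNAs was 0.94, against 0.33 in the main run. The correction was not computed for miR-30b-5p and miR-30d-5p.

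**Figure D3:**
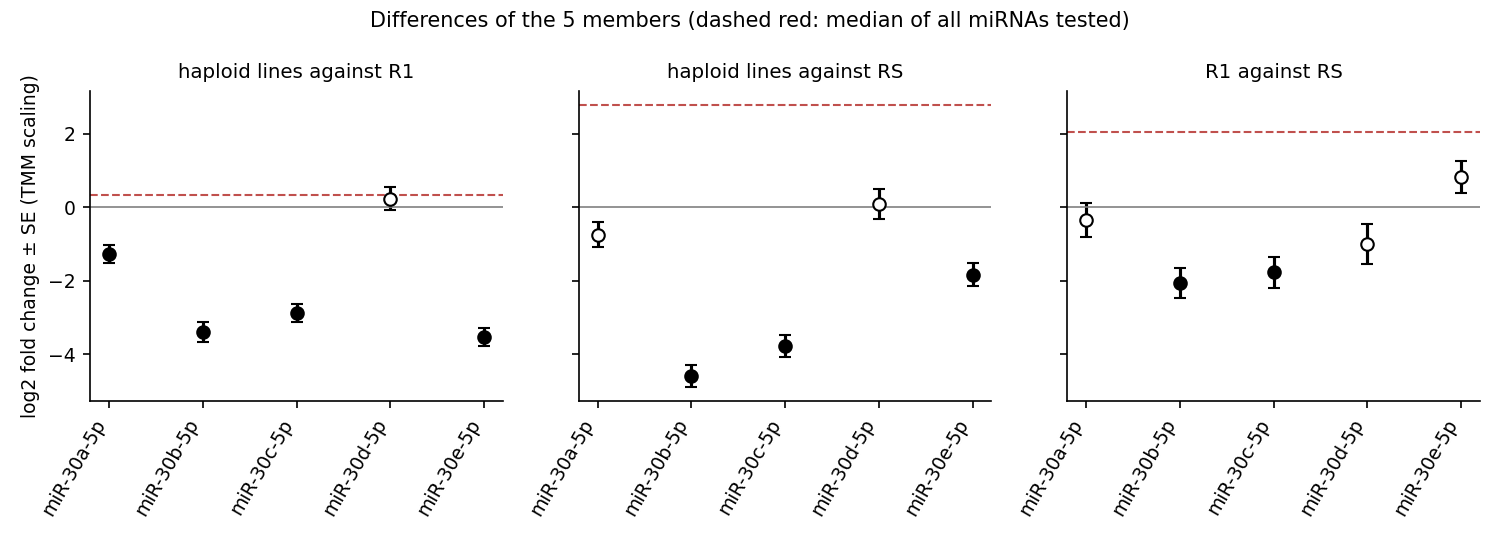
Log2 fold change with its standard error for each member in haploid lines against R1, haploid lines against RS and R1 against RS (TMM scaling). Filled points passed an adjusted p of 0.05 in edgeR's quasi-likelihood test and the dashed line is the median of all miRNAs tested. Against R1 the members range from -3.53 for miR-30e-5p to 0.24 for miR-30d-5p.

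Each haploid line showed the same 4 members lower than R1. Of all miRNAs 59.8% passed for A129-2 (28.8% lower), 67.1% for A129-6 (32.1% lower) and 66.2% for A129-17 (31.6% lower), and the R1 libraries are shared by these comparisons. miR-30e-5p differed from R1 by log2 -3.08 (SE 0.36) for line A129-2, -3.62 (SE 0.31) for A129-6 and -3.88 (SE 0.37) for A129-17. miR-30c-5p differed by -2.37 (SE 0.35), -2.78 (SE 0.31) and -3.48 (SE 0.37), and miR-30b-5p by -3.47 (SE 0.42), -3.44 (SE 0.36) and -3.26 (SE 0.42), in the same order of lines. The highest of these 9 adjusted p-values was 3.63e-05, for miR-30c-5p in A129-2. miR-30a-5p was lower by smaller amounts, with -1.11 for A129-2 (adjusted p = 0.00803), -1.10 for A129-6 (0.00351) and -1.63 for A129-17 (0.000474). The A129-2 call for miR-30a-5p was lost without A129-2 replicate 1 (log2 -0.74, adjusted p = 0.0810) and without R1 replicate 1 (adjusted p = 0.0648), and the calls in A129-2 and A129-6 were lost with the GC correction (log2 -0.33 and -0.37). With all 12 libraries in the model the calls for miR-30a-5p were lost in A129-2 (log2 -0.25, adjusted p = 0.696), A129-6 (-0.24, 0.678) and A129-17 (-0.75, 0.214). The medians over all miRNAs were then 0.92, 1.05 and 0.88, against 0.30, 0.34 and 0.20 in the main run, in the same order of lines. miR-30d-5p stood at -0.043 (SE 0.39), 0.37 (SE 0.36) and 0.38 (SE 0.39), none of which passed and each of which changed sign in at least 1 alternative.

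Differences between the haploid lines were tested over the 3 lines at once, and 29 of 757 miRNAs (3.83%) passed. None of the 5 members did, with adjusted p-values of 0.140 for miR-30c-5p, 0.257 for miR-30e-5p, 0.406 for miR-30a-5p, 0.678 for miR-30d-5p and 0.924 for miR-30b-5p. Before adjustment 1 member, miR-30c-5p, was under 0.05 (unadjusted p = 0.0182, edgeR), and DESeq2 called 0 members at an adjusted p of 0.05. The widest difference between a pair of lines was miR-30c-5p in A129-2 against A129-17 (log2 1.10, SE 0.34, adjusted p = 0.0907). It passed without A129-2 replicate 1 (adjusted p = 0.0390), without A129-6 replicate 3 (0.0472) and with DESeq2 (0.0258), and leaving out single libraries moved it between 0.50 and 1.51.

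**Figure D4:**
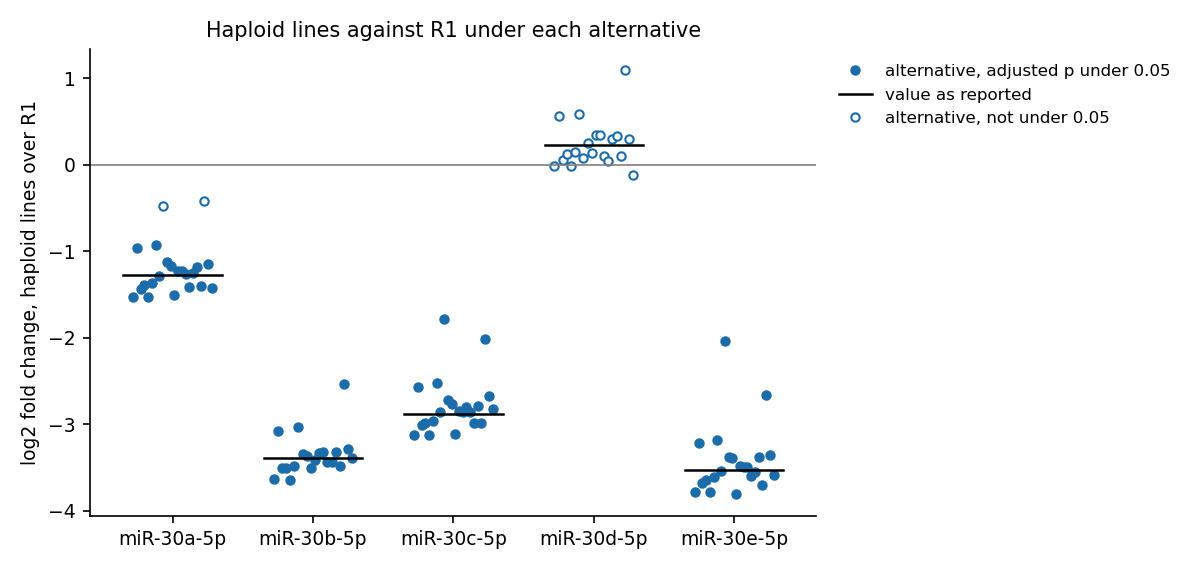
Log2 fold change of each member in haploid lines against R1, with the reported value as a line and 1 point per alternative (scaling, filter, tool, GC correction, libraries left out), filled where the adjusted p was under 0.05. Points of miR-30b-5p, miR-30c-5p and miR-30e-5p are all filled, miR-30a-5p has 2 open points at -0.48 and -0.41, and those of miR-30d-5p lie on both sides of 0.

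Haploid stem cells were next set against spermatids, which are haploid as well but come from the testis. This comparison was made over all 12 libraries and 806 miRNAs. miR-30b-5p, miR-30c-5p and miR-30e-5p were lower in the haploid lines, and miR-30a-5p and miR-30d-5p did not pass. Of all miRNAs tested 65.4% passed in either direction, 20.8% as lower and 44.5% as higher. miR-30b-5p was 24.1-fold lower (log2 -4.59, SE 0.30, adjusted p = 1.03e-11), miR-30c-5p 13.7-fold lower (log2 -3.78, SE 0.30, adjusted p = 1.38e-10) and miR-30e-5p 3.57-fold lower (log2 -1.83, SE 0.31, adjusted p = 1.90e-05). The TMM-scaled levels of these 3 did not overlap between haploid and RS libraries, against 16.3% of the miRNAs tested in the lower direction.

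The result for miR-30a-5p and miR-30d-5p changed with the scaling between stem cells and spermatids, and for miR-30a-5p also with other choices. TMM gave miR-30a-5p a log2 difference of -0.75 (SE 0.34, adjusted p = 0.0564) and miR-30d-5p 0.088 (SE 0.40, adjusted p = 0.863). With total counts, where the reads of the miR-290 cluster count in full, both were lower in the haploid lines, by log2 -2.52 for miR-30a-5p and -1.73 for miR-30d-5p (adjusted p = 0.000238). Upper-quartile scaling likewise called both (-2.35 and -1.48). RLE scaling called miR-30a-5p (-1.19, adjusted p = 0.00317) and not miR-30d-5p (-0.37), and the GC correction also called miR-30a-5p (-1.97, adjusted p = 9.29e-06). miR-30a-5p passed too with DESeq2 (-1.19, adjusted p = 2.50e-06) and the stricter filter (-1.39, adjusted p = 0.000991). It passed without A129-2 replicate 2 (-1.24, adjusted p = 0.0111), A129-17 replicate 1 (-1.15, 0.0263) or RS replicate 2 (-0.74, 0.0322), and without A129-6 replicate 3 and A129-17 replicate 1 together (-1.16, 0.0299). The median log2 difference over all miRNAs was 2.79 with TMM and 1.29 with total counts, against -1.83 over the 5 members with TMM. In the same comparison the medians by GC class were -1.21, 0.83 and 4.09 for miRNAs of 30% to 40%, 40% to 50% and 50% to 60% GC.

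As shares of all counted reads, summed markers of other cell types ran higher in spermatid libraries, with overlap for the mesenchymal list. The miR-290 cluster took 64.1% to 77.1% of reads in the haploid libraries, 49.1% to 50.2% in R1 and at most 0.678% in RS. Marker shares of the stem cell libraries are lowered by those reads, and marker shares outside the cluster were not computed. The 11 mesenchymal and somatic testis markers summed to 0.597% to 2.70% of reads in the haploid libraries, 1.50% to 1.67% in R1 and 2.35% to 6.79% in RS, where all 11 had reads. Both miR-202 arms, which are in this list as somatic testis markers, were at 0 in A129-2 and A129-17, and miR-202-3p was at 0 in A129-6. All 11 had reads in R1 too, so reads of both miR-202 arms were not confined to spermatid libraries. The 9 blood and endothelial markers summed to 0.0369% to 0.0873% in the haploid libraries, 0.0712% to 0.0751% in R1 and 0.158% to 1.49% in RS. miR-144-3p, of red blood cells, was at 0 in A129-2 and A129-17 and had reads in A129-6, R1 and RS. The part of such cells in the spermatid levels of the family was not tested.

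R1 set against RS, in the same model, showed miR-30b-5p lower 4.17-fold (log2 -2.06, SE 0.42, adjusted p = 0.000189) and miR-30c-5p lower 3.41-fold (log2 -1.77, SE 0.43, adjusted p = 0.00109). Of all miRNAs tested 53.0% passed, 19.4% as lower and 33.6% as higher. Both calls were lost without R1 replicate 1 (log2 -1.46 for miR-30b-5p and -1.19 for miR-30c-5p), without R1 replicate 2 (-1.35 and -1.04) and without RS replicate 2 (-0.86 and -0.60). That for miR-30c-5p was also lost with scaling on all miRNAs but the miR-290 cluster (adjusted p = 0.0577) and without a filter (0.149). miR-30a-5p (log2 -0.34, SE 0.47, adjusted p = 0.569), miR-30d-5p (-1.004, SE 0.54, adjusted p = 0.127) and miR-30e-5p (0.83, SE 0.43, adjusted p = 0.111) did not pass. The sign of miR-30a-5p turned when the miR-290 cluster was left out of the scaling (0.52), and that of miR-30e-5p turned with upper-quartile scaling (-0.18). miR-30e-5p passed as higher in R1 with DESeq2 (0.98, adjusted p = 0.0101), with scaling on all miRNAs but the miR-290 cluster (1.64, 0.00285), with no filter (1.64, 0.00812) and on the miRNAs with a sequence (1.42, 0.0187). The median log2 difference over all miRNAs was 0.77, 2.71, 1.81 and 2.93 in these runs, and 2.04 in the main one. Among these runs miR-30e-5p lay above that median only with DESeq2. It also passed without R1 replicate 2 (1.66, adjusted p = 0.0336), RS replicate 2 (1.78, 0.000746) or RS replicate 3 (1.66, 0.00655). miR-30d-5p passed as lower in R1 with total-count (-1.78, adjusted p = 0.00783) and upper-quartile scaling (-2.01, 0.00597) and with R1 and RS libraries only (-1.42, 0.0468). miR-30a-5p passed as lower with the GC correction (-1.42, adjusted p = 0.0109) and upper-quartile scaling (-1.34, 0.0263).

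The other arms of the same hairpins were looked at next, with miR-30f and the miR-384 arms. They are printed here because several are near copies of one another, with the bases at positions 2 to 8 in capitals.
miR-30a-3p: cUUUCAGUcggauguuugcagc
miR-30e-3p: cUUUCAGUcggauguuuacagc
miR-30c-1-3p: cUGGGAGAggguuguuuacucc
miR-30c-2-3p: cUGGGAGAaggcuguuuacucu
miR-30f: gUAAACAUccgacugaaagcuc
miR-384-5p: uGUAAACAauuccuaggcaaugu

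miR-30a-3p and miR-30e-3p differ by the single substitution G18A, with the miR-30a base first and positions counted from the 5′ end. miR-30f lies at chr4:120772621-120772642 on the plus strand, opposite to miR-30e-3p at chr4:120772618-120772639, and the use of strand in the authors' counting is not given in the sources used here. Reads of these overlapping arms may therefore not be separable. miR-384-5p carries the family seed but had 2 reads in all 12 libraries, both in A129-6, and miR-384-3p had 1, in R1. The other 7 of the 9 listed arms were tested.

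Between the haploid lines and R1, 6 of the 7 arms were lower and 1 was higher. Of all miRNAs tested, 35.3% passed as lower and 35.3% as higher. miR-30e-3p (log2 -2.52, SE 0.24), miR-30f (-1.84, SE 0.33), miR-30b-3p (-1.79, SE 0.29) and miR-30a-3p (-1.47, SE 0.30) fell with adjusted p-values of 0.000403 or less. miR-30c-1-3p fell too (log2 -1.33, SE 0.39, adjusted p = 0.00638), a call lost without R1 replicate 1 (adjusted p = 0.104). With all 12 libraries in the model, where the median over all miRNAs was 0.94, the calls for miR-30c-1-3p (log2 -0.47) and miR-30a-3p (-0.63) were lost. miR-30c-2-3p was higher (0.72, SE 0.27, adjusted p = 0.0260), but this call did not hold with RLE or total-count scaling, scaling without the miR-290 cluster, DESeq2 or no filter, or without A129-2 replicate 2, A129-17 replicate 2 or either R1 library. miR-30d-3p had 18 reads in the 7 haploid libraries, 3 of which had none, against 323 reads in R1. Its pooled CPM was 49.2-fold lower in the haploid libraries than in R1 (95% counting interval 30.6 to 84.1). In edgeR's test with TMM scaling it was lower by log2 -5.76 (SE 0.65, adjusted p = 1.32e-06).

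Between the haploid lines and RS, 4 of the 7 arms were lower and none higher. Of all miRNAs tested, 20.8% passed as lower and 44.5% as higher. miR-30e-3p (log2 -4.59, SE 0.31), miR-30f (-4.20, SE 0.35) and miR-30a-3p (-3.56, SE 0.30) fell with adjusted p-values of 5.58e-10 or less. miR-30d-3p, with 17 reads in RS, was 28.7-fold lower in edgeR's test with TMM scaling (log2 -4.85, SE 0.78, adjusted p = 8.53e-06). By pooled CPM, which has no such scaling, it was 76.9-fold lower (counting interval 37.3 to 158). miR-30b-3p (-0.76), miR-30c-2-3p (-0.50) and miR-30c-1-3p (0.65) did not pass, although miR-30b-3p and miR-30c-2-3p passed as lower with RLE, upper-quartile and total-count scaling (with total counts -2.45 and -2.25). Of all miRNAs tested between R1 and RS, 19.4% passed as lower and 33.6% as higher. In R1 against RS the lower arms were miR-30f (-3.22, SE 0.52), miR-30a-3p (-2.93, SE 0.46), miR-30e-3p (-2.93, SE 0.47) and miR-30c-2-3p (-2.07, SE 0.41), and the call for miR-30c-2-3p was lost without R1 replicate 1 (adjusted p = 0.129) or 2 (0.0843).

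The share of reads on the 5p arm, out of 5p and 3p reads of the same miRNA, took separate ranges in haploid, R1 and RS libraries for miR-30b, and was lower in haploid libraries than in R1 and RS for miR-30c, as a description with no test. For miR-30b, 37.7% ± 5.25 of the arm reads were 5p in the 7 haploid libraries, 64.7% ± 0.846 in the 2 R1 libraries and 89.6% ± 2.27 in the 3 RS libraries (SD). The libraries ran from 29.0% to 44.8% in the haploid lines, from 64.1% to 65.3% in R1 and from 87.8% to 92.1% in RS, with no overlap. So in each haploid library miR-30b was read more often from its 3p than from its 5p arm.

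For miR-30c, with the 3p arms of both precursors summed, 50.02% ± 12.0 of the arm reads were 5p in the haploid libraries, 90.1% ± 0.395 in R1 and 90.8% ± 4.45 in RS. The haploid lines fell apart in this measure. The 5p share was 61.2% and 66.7% in A129-2, 47.0% to 53.4% in A129-6, and 33.5% and 37.4% in A129-17, with no overlap between lines, and no test of the lines was made. The 3p reads of miR-30c came mostly from Mir30c-2, with 549 to 976 reads of miR-30c-2-3p against 24 to 103 of miR-30c-1-3p in the A129-6 libraries. The gap was narrower in R1, with 484 and 660 reads of miR-30c-2-3p against 303 and 266 of miR-30c-1-3p. miR-30c-5p has 43.5% GC, miR-30c-2-3p 50% and miR-30c-1-3p 54.5%, so the arms lie in different GC classes, whose medians in haploid lines against R1 differed as given above. The part of base composition in the arm shares was not tested.

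For miR-30a, miR-30d and miR-30e the 5p arm dominated. miR-30a had 98.6% to 99.6% of its arm reads as 5p in haploid libraries, 98.8% to 99.1% in R1 and 90.1% to 96.7% in RS. miR-30e had 94.4% to 97.5% in haploid libraries, 97.5% to 98.2% in R1 and 64.1% to 89.3% in RS, so both were read more from their 3p arms in spermatids. miR-30d had 99.985% to 100% in haploid libraries, 99.80% to 99.86% in R1 and 99.88% to 99.94% in RS.

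**Figure D5:**
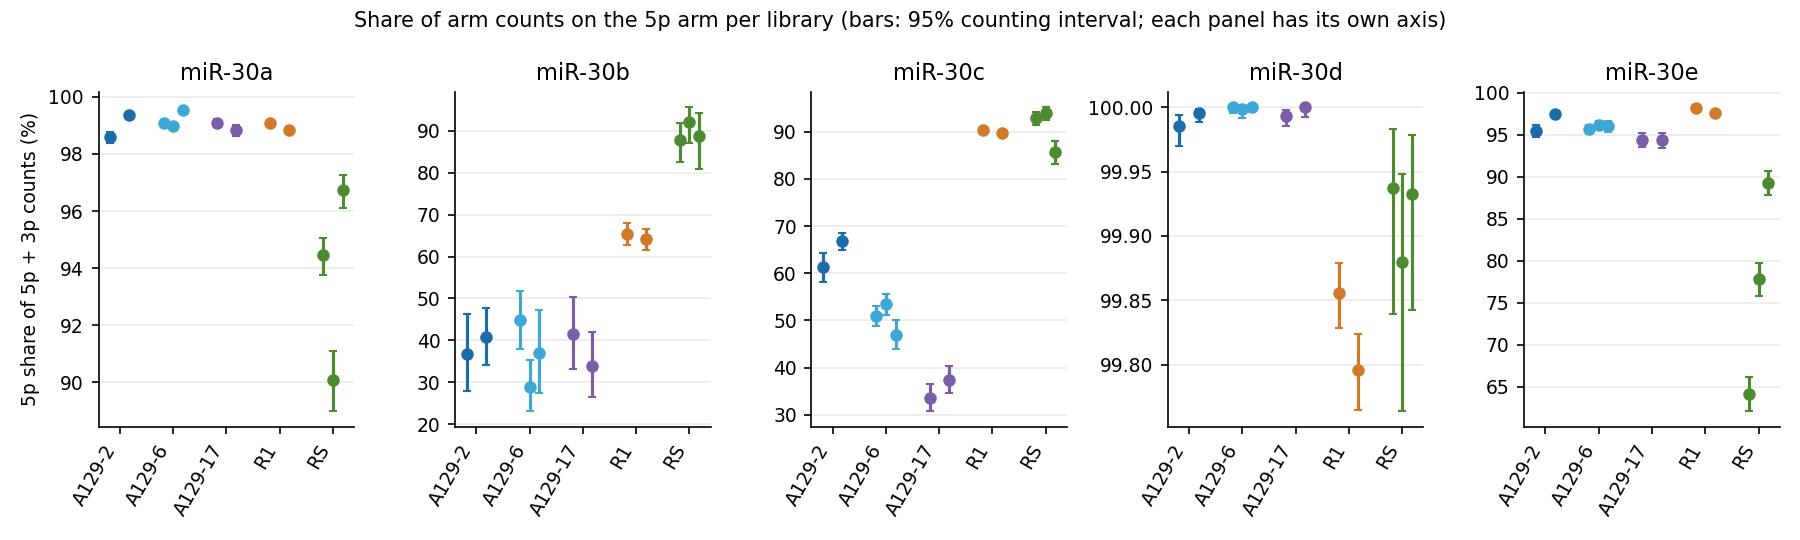
Share (%) of 5p reads among the 5p and 3p reads of each miRNA, with 1 point per library, 95% Clopper-Pearson intervals for counting error and a separate axis for each panel. miR-30b lies at 29.0% to 44.8% in haploid libraries, 64.1% to 65.3% in R1 and 87.8% to 92.1% in RS, and miR-30c separates the haploid lines.

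Across libraries the members fell into 2 patterns. Over the 12 libraries, Pearson's r of log2 TMM-scaled levels was 0.97 for miR-30b with miR-30c, 0.82 for miR-30c with miR-30e, 0.79 for miR-30b with miR-30e, and 0.68 to 0.77 for miR-30a with miR-30b, miR-30c and miR-30e. For miR-30d it was 0.0037 with miR-30a, -0.23 with miR-30b, -0.26 with miR-30c and -0.50 with miR-30e. Over the 9 stem cell libraries the first 4 members had r of 0.84 to 0.98 with one another, and miR-30d -0.35 to -0.038 with them. Libraries of a group share their cells and the members share the scaling, so these values are descriptions only.

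Among 477 other miRNAs with at least 10 CPM on average, the one most like each member over the 12 libraries was miR-195a-5p for miR-30b (r = 0.99), miR-192-5p for miR-30c (0.96), miR-140-5p for miR-30e (0.96), miR-212-5p for miR-30d (0.83) and miR-467e-5p for miR-30a (0.78). miR-195a-5p had 1.87 ± 0.783 CPM in A129-2, 1.58 ± 0.812 in A129-6, 1.88 ± 0.633 in A129-17, 31.2 ± 2.03 in R1 and 473 ± 140.3 in RS (SD), the steps seen for miR-30b-5p. miR-140-5p had 20.0 ± 7.38, 8.17 ± 0.640 and 7.20 ± 3.37 CPM in A129-2, A129-6 and A129-17, 316 ± 31.2 in R1 and 133 ± 52.3 in RS. For the summed family the most alike were miR-212-5p (0.71), miR-191-5p (0.65) and miR-204-5p (0.63) over the 12 libraries. Over the 9 stem cell libraries they were miR-135b-3p (0.90), miR-295-5p (0.88) and miR-196a-5p (0.87), among 441 candidates.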

How the data were processed

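The deposited values are raw read counts per miRNA, with no normalization by the authors, in 1 table of 12 libraries. Per the labels' protocols, libraries were made with the NEBNext small RNA kit (3′ and then 5′ adapter ligation, PCR, gel selection) with NovaSeq single-end reads. The submitters' processing notes name DESeq2 and Bowtie 0.12.9. Not given in the sources used here are the miRBase release, the build, and how strand and reads with several matches were handled.

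Counts were analysed with R 4.3.3, edgeR 4.0.16 and limma 3.58.1, and described with Python 3.11.15. The filter was filterByExpr by group, at a minimum count of 10 and a total of at least 15, and scaling was by TMM. The main test was edgeR's two-sided quasi-likelihood F-test at a threshold of 0.05, after Benjamini-Hochberg adjustment over all rows tested. One model held the 9 stem cell libraries (757 rows) and another all 12 (806 rows). DESeq2 1.42.0 was an alternative, beside other scalings, filters, a replicate block, a correction for GC content (loess per library, span 0.75), and single libraries left out. The code was tested on simulated data. Log2 levels for correlations used a prior count of 2. Shares within the family were compared by exact permutation over libraries.

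All 5 members were named in each comparison, as were the tested arms. The miRNAs of similar pattern were taken by rank of Pearson's r. Members, lists and tests were chosen with earlier results of these data known. Mature sequences are from RefSeq (GRCm38.p6) and precursors from GENCODE M21. RefSeq entries were found for miR-30a, miR-30c and miR-30e.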

Additional observations from a re-analysis of the deposited data

How the results depend on the processing

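The calls that miR-30b-5p, miR-30c-5p and miR-30e-5p were lower in haploid lines than in R1 held in all alternatives run for each, with log2 differences of -3.64 to -2.53, -3.13 to -1.78 and -3.81 to -2.03, and miR-30a-5p ranged from -1.53 to -0.41. The GC correction was not computed for miR-30b-5p and miR-30d-5p. miR-30d-5p, never called in haploid lines against R1, ranged from -0.12 to 1.09. Its sign turned in haploid lines against R1 with RLE and with DESeq2 (both -0.0089) and without A129-6 replicate 3 and A129-17 replicate 1 together (-0.12), a choice made after seeing the data. It turned in A129-2 with upper-quartile (0.20) and total-count scaling (0.057), the stricter filter (0.32) and all 12 libraries (0.79), in A129-6 with the replicate block (-0.093) and without both libraries (-0.15), and in A129-17 with total counts (-0.022) and without both libraries (-0.092). Leaving out single libraries gave -0.25 to 0.062 for A129-2, -0.092 to 0.61 for A129-6 and -0.093 to 0.68 for A129-17. For A129-2 against R1, 3 or 4 members passed.

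Against RS, miR-30d-5p in haploid lines turned to -0.37 with RLE and DESeq2, -1.48 with upper-quartile scaling, -1.73 with total counts, -0.071 without a filter, -0.60 with the stricter filter, -0.28 with counts summed per line, -0.035 with haploid and RS libraries only, -0.57 without both libraries, and -0.42 to 0.33 without single ones. All 5 members passed with upper-quartile or total-count scaling, and 3 to 4 without single libraries. For R1 against RS, 4 members passed with upper-quartile scaling and 0 to 3 without single libraries. Signs turned for miR-30a-5p with the miR-290 cluster left out (0.52), no filter (0.53) and miRNAs with a sequence only (0.31, -0.29 to 0.54 without single libraries), and for miR-30e-5p with upper-quartile scaling (-0.18) and GC correction (-0.065). miR-30c-1-3p in haploid lines against RS turned with upper-quartile scaling (-0.95), total counts (-1.05) and GC correction (-1.98), and in R1 with GC correction (-0.18). In R1 against RS, miR-30b-3p turned with upper-quartile scaling (-0.82), total counts (-0.56) and R1 and RS libraries only (-0.24). miR-30d-3p turned there with upper-quartile scaling (-0.93), total counts (-0.73) and the stricter filter (-0.16), and ran from -0.24 to 1.43 without single libraries. The cause was not tested.

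The 29 miRNAs that differed among haploid lines became 0 with total counts, 3 with the stricter filter, 72 with the replicate block, 82 without a filter, 89 without both libraries, 90 with DESeq2, and 0 to 80 without single libraries. In each of these 0 members passed. The replicate block also called miR-30c-5p in A129-2 against A129-17 (1.08, adjusted p = 0.0457). Same-numbered libraries deviated from their group means with r of -0.16 to 0.13 over 21 pairs, 1 of them over 0.1. In groups of 2 libraries these deviations mirror each other. The pairs are therefore not independent and cannot settle whether replicate numbers pair the samples.

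Among shares within the family, 3 summed lines gave -1.04, -6.90, 20.0 and -6.76 points for miR-30b, miR-30c, miR-30d and miR-30e, past no threshold because the smallest exact p there is 0.1. miR-30a, miR-30d and miR-30e summed differed by 7.94 points, against the negative differences of miR-30a and miR-30e alone. Without single libraries the ranges were -7.71 to -2.68, -1.27 to -0.912, -8.29 to -6.11, 17.3 to 22.1 and -7.44 to -6.36 points for miR-30a to miR-30e, with exact permutation p up to 0.0556 without an RS library for all but miR-30a. The family sum, scaled by TMM, averaged 2.21%, 2.68%, 2.53%, 2.28% and 3.23% in A129-2, A129-6, A129-17, R1 and RS, and 5.69%, 6.22%, 5.69% and 5.94% of reads outside the miR-290 cluster in the stem cell groups. Without single libraries it was 1.65% to 1.77%, 1.64% to 1.71%, 1.13% to 1.60%, 2.81% to 3.17% and 6.74% to 7.97% of counted reads. The shallow RS libraries limit the low members, and R1 has 2 libraries.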
